A study of Mus musculus with 20 samples.

Results

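The genes of oxidative phosphorylation were followed in mouse blastocysts that had received a let-7f mimic as zygotes. They are the subunits of the 5 complexes of the mitochondrial inner membrane that carry electrons to oxygen and make ATP, together with a few assembly and control factors that share their names. Members were taken by symbol: mt-Nd, mt-Co, mt-Cyb and mt-Atp genes of mitochondrial DNA (mtDNA), nuclear genes starting with Nduf, Uqcr, Cox4 to Cox8 or Atp5, and Sdha, Sdhb, Sdhc, Sdhd and Cyc1. This gave 100 of the 16014 named genes in the table, 10 of them mtDNA-encoded and 90 nuclear, after 3 pseudogene rows were left out. Cytochrome b is spelled mt-Cytb in the table and was included, although the prefix mt-Cyb does not match it by letter (99 members without it). By complex, 50 members belonged to complex I, 4 to complex II, 10 to complex III, 17 to complex IV and 19 to complex V. Among the nuclear members, 25 were core subunits, 55 accessory subunits, 8 complex I assembly factors, 1 an ATP synthase inhibitor (Atp5if1) and 1 a supercomplex factor (Cox7a2l). The mitochondrial genes mt-Nd3, mt-Nd4l and mt-Atp8 had no row under these names, so the mtDNA sums and shares below leave them out.

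Each of the 20 libraries held RNA of 10 pooled blastocysts, wild type and of the strain labelled F1 C57BL/6Jx129S1/SvlmJ, injected as zygotes and grown to blastocysts in KSOM medium at reduced oxygen. Vehicle pools (n = 7) received nuclease-free water, Str let-7f pools (n = 8) the let-7f-5p mimic at a concentration modelled on sperm after paternal stress, and 2x Str let-7f pools (n = 5) the mimic at 2 times that concentration, called the doubled concentration from here on. No group received an unrelated mimic. No label ties a pool to a litter or an injection day, and p-values therefore cover only the variation among these samples, which may be technical.

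Oxidative phosphorylation depends on 2 genomes. Mitochondrial DNA, which comes from the egg, encodes a few hydrophobic core subunits of complexes I, III, IV and V and is read as long transcripts that are then cut into single messages. All subunits of complex II and most subunits of the others are nuclear, and complex I is built with the help of dedicated assembly factors. In the mouse the blastocyst is the stage at which oxygen use and ATP demand climb, as the trophectoderm pumps fluid into the cavity, while the mitochondria are still those of the egg.

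The mimic is shown first, because its seed decides which messages it can pair with directly. Capitals mark bases 2 to 8, the seed. The sequence equals RefSeq's mmu-let-7f-5p.
let-7f mimic: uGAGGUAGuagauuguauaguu
The seed pairs with CTACCTC, or with CTACCTCA when an A follows. Among 86 members with an annotated 3′ untranslated region, 1 (1.16%) held the 7-base match and 0 held the 8-base match, against 1375 (9.89%) and 473 (3.4%) of 13908 genes. These regions were short: their median length was 177 bases in members and 1031 bases in all genes, and matches stood at 0.0263 per kb in members against 0.0734 per kb in all genes. The member with the match was Cox7b, an accessory subunit of cytochrome c oxidase whose gene lies on chromosome X. Capitals mark the match within its 3′ region.
Cox7b: cttactgccctCTACCTCgtggttatatt
Cox7b stood at 292 to 579 normalized counts in vehicle (median 475) and at 377 to 599.7 in Str let-7f (median 461). At the doubled concentration it stood at 540.02, 486, 362, 248 and 402. The groups overlapped, and the log2 fold change was -0.00 ± 0.17 (SE) in Str let-7f and -0.23 ± 0.20 at the doubled concentration (limma adjusted p = 0.997 and 0.7).

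Depth ran from 1.54 to 58.8 M reads per library, with medians of 10.5 M in vehicle, 12.4 M in Str let-7f and 5.04 M at the doubled concentration. Lin28a, a let-7 target used as a check of the mimic, fell in both groups (log2 fold change -1.44 and -1.21, limma adjusted p = 8.21e-05 and 0.00287). Markers of trophectoderm were all measured (10 of 10), and their summed level overlapped between groups at 7087 to 12280 reads per 1000000 recovered reads (RPM), with 0 genes called. Epiblast markers (9 of 10 measured) lay at 829.07 to 1387 RPM with 0 called. Of 10 primitive endoderm markers, 9 stood below vehicle and 1 above in each mimic group. By limma 7 were called lower in Str let-7f and 5 at the doubled concentration, against 0.796% and 0.664% of all genes. The marker lists were chosen with earlier results of these data known, so these counts are a description and not an independent test. The primitive endoderm markers summed to 4543 to 5940 RPM in vehicle, 2354 to 4153 in Str let-7f and 2260 to 3911 at the doubled concentration. The part of this shift in the values below was not tested, and in pooled embryos fewer cells of a type and less RNA per cell cannot be told apart. Markers of other cells were scarce: cumulus and granulosa (5 of 10 in the table) summed to 4.01 to 25.8 RPM, sperm and testis (1 of 10) to 0 to 3.46 RPM and blood (4 of 10) to 1.67 to 10.3 RPM.

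Most messages of the respiratory chain and ATP synthase stood close to their vehicle levels at both concentrations, and no member passed the test. Of 99 members tested, 0 were called in Str let-7f, 0 at the doubled concentration and 0 between both mimic groups (limma with Benjamini-Hochberg adjustment over 15068 genes). The share of all genes called was 2.63% in Str let-7f, 1.89% at the doubled concentration and 0% between the mimic groups, so a count of 0 among 99 lies near the background and is not by itself a result about these genes. By direction, 1.84% of all genes were called higher and 0.796% lower in Str let-7f, and 1.23% and 0.664% at the doubled concentration. At an unadjusted limma p under 0.05 there were 12 members in Str let-7f, 7 higher and 5 lower, where 14.9% of all genes reached it (8.15% higher and 6.78% lower). At the doubled concentration there were 2, both lower (12.9% of all genes, 7.07% higher and 5.81% lower), and between the mimic groups 2, both higher at the doubled concentration (4.04% of all genes, 2.1% higher). edgeR and DESeq2 on the recovered reads each called 1 member in Str let-7f, mt-Nd1 (2.77% and 5.09% of all genes), and 0 in the other comparisons (1.79% and 4.11% at the doubled concentration, 0.00664% and 0.0664% between mimic groups). The median log2 fold change of the members was -0.00 in Str let-7f and -0.03 at the doubled concentration, against -0.02 and -0.01 for all genes tested.

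The size of change that the data leave possible was small for most members of high level, and often larger for the others. In Str let-7f the 95% interval of the fold change lay wholly within 1.5-fold for 66 of 99 members (66.7%), against 3944 of 15068 genes (26.2%). Members are well expressed, which narrows intervals. Among genes with a mean of at least 500 normalized counts it held for 46 of 49 members (93.9%) and for 2768 of 4230 genes (65.4%). Of those 4230 genes 173 (4.09%) were called, so a count of 0 among the 49 members again lies near the background. At the doubled concentration it held for 56 of 99 members (56.6%) and 3245 genes (21.5%). Among members with a mean under 500 it held for 20 of 50 (40%) in Str let-7f and 14 of 50 (28%) at the doubled concentration. For all genes under 500 the shares were 10.9% and 7.02%. The 25 nuclear core subunits were the most tightly bounded class, with 24 of 25 within 1.5-fold in Str let-7f and 23 of 25 at the doubled concentration, and medians of 0.01 and 0.00. Of the 54 accessory subunits tested, 32 and 24 were so bounded, with medians of -0.03 and -0.07. All fold changes are of log2(normalized count + 1). The added 1 shrinks differences between low counts, but single pools near 0 weigh heavily in a mean of logs. Fold changes of low genes can therefore be too small or too large. Ndufaf5, for example, had means of 36.1 in Str let-7f and 58.1 in vehicle, at a log2 fold change of -1.11.

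**Figure D1:**
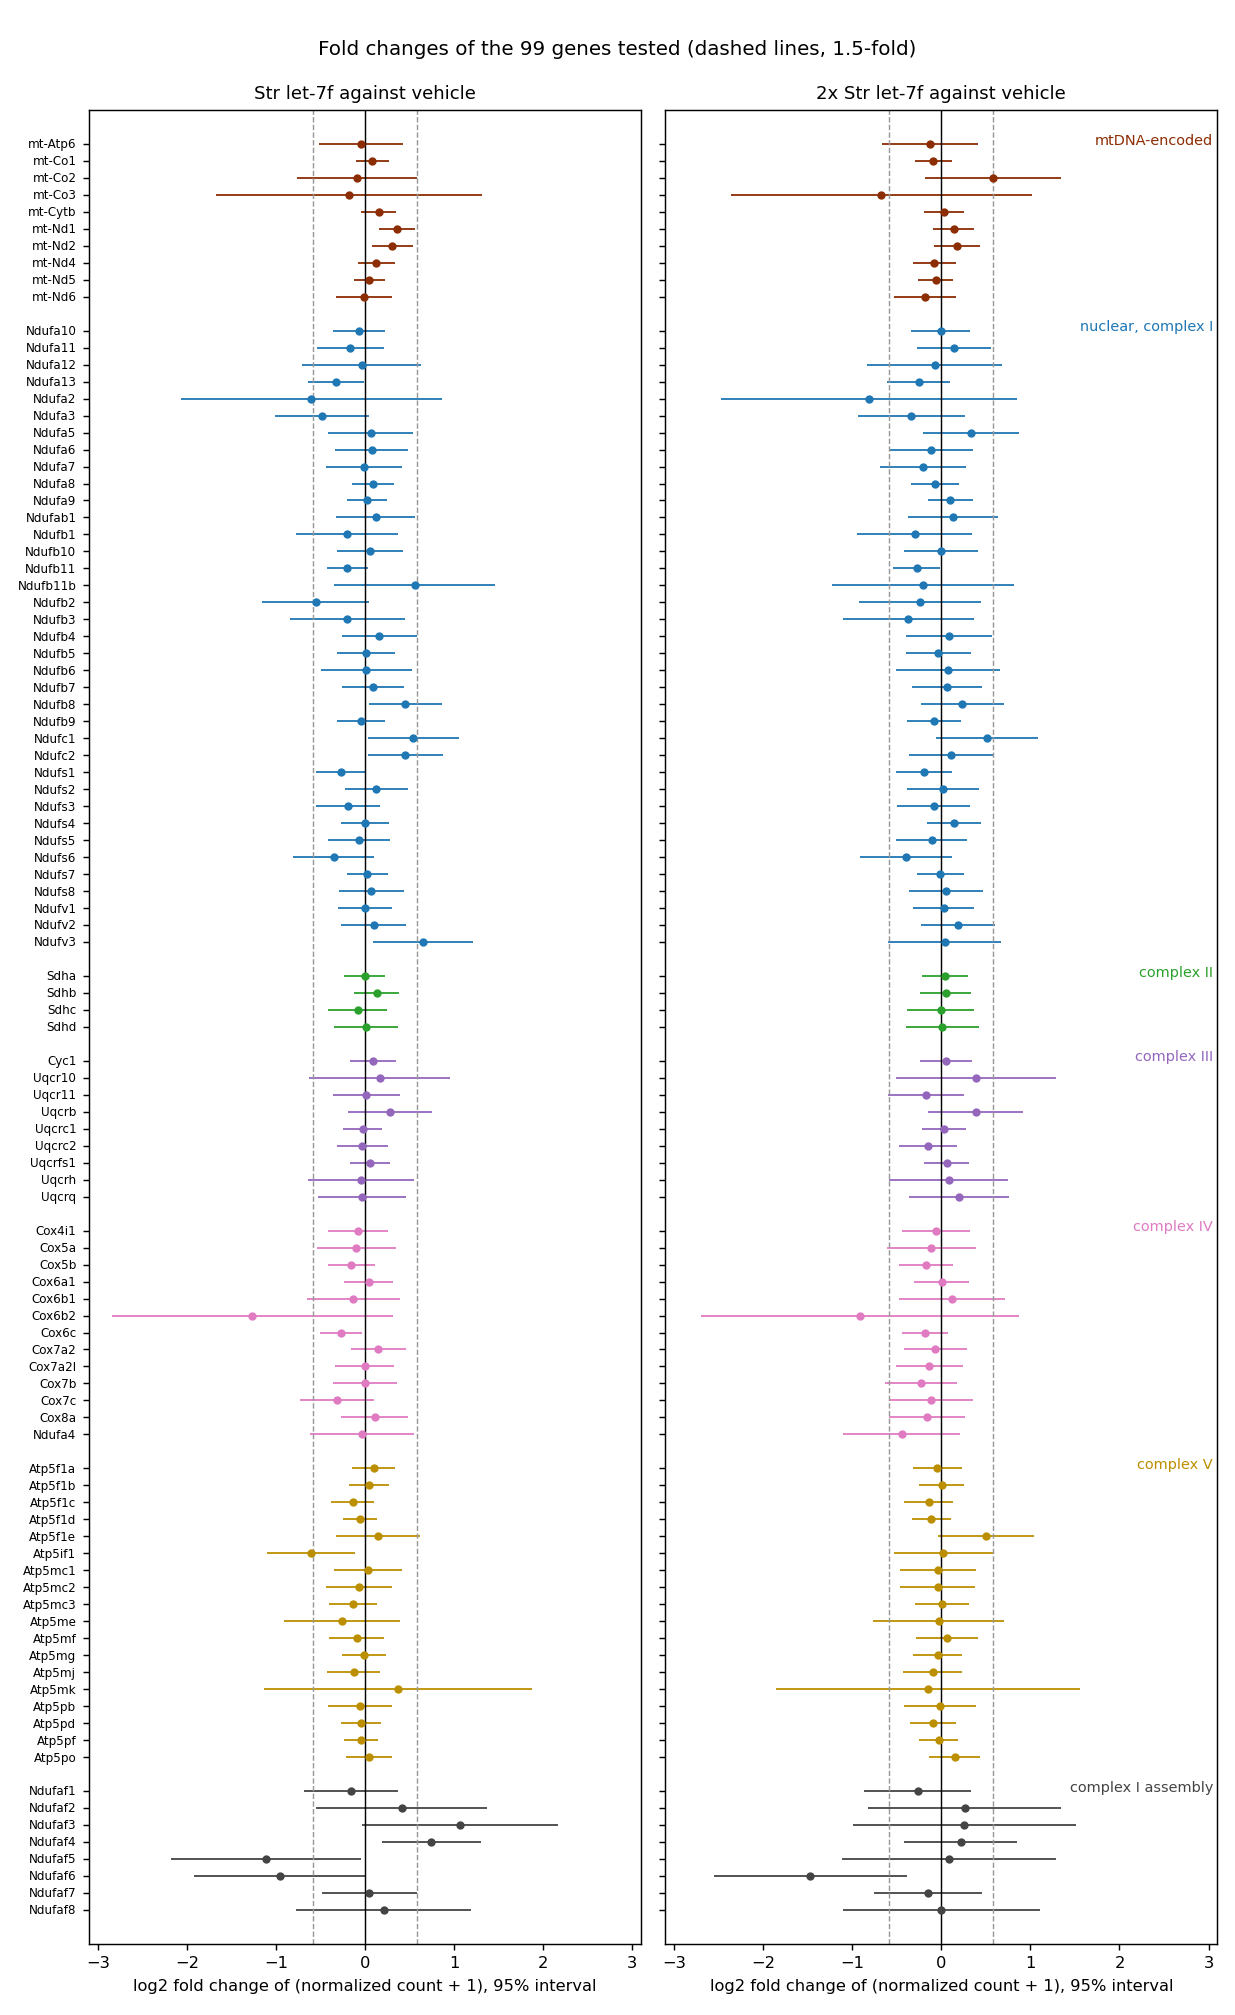
Log2 fold change against vehicle (horizontal axis, log2 of normalized count + 1) with its 95% interval for the 99 genes tested, by genome and complex (Cox7a2l is shown with complex IV and Atp5if1 with complex V). Left, Str let-7f (n = 8); right, 2x Str let-7f (n = 5); vehicle n = 7. Most intervals cross 0 and lie between the dashed lines at 1.5-fold, and the widest belong to genes of few reads, to mt-Co3 and to the assembly factors.

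By genome of origin, mtDNA members took 1.91 ± 0.194% of reads in vehicle (SD, n = 7), 2.07 ± 0.269% in Str let-7f (n = 8) and 1.88 ± 0.279% at the doubled concentration (n = 5). Their sum ran from 16144 to 21460 RPM in vehicle (median 19222) and from 15238 to 23098 in Str let-7f (median 21351), and stood at 19192, 18826, 22995, 15253 and 17917 at the doubled concentration. The groups overlapped, with 4 of 8 Str let-7f pools above every vehicle pool and 1 below. Near-identical copy rows, described below, are left out of this sum. With them the group means were 20313.1 RPM in vehicle, 21858.5 in Str let-7f and 19707.2 at the doubled concentration, against 19112.5, 20686.2 and 18836.9 without. The 80 nuclear subunits together took 0.764 ± 0.0414%, 0.767 ± 0.0517% and 0.75 ± 0.0274% of reads. This sum was steadier between pools than the mtDNA sum, at 7075 to 8129 RPM in vehicle, 6688 to 8385 in Str let-7f and 7146 to 7784 at the doubled concentration. The ratio of mtDNA to nuclear reads was 2.51 ± 0.25 in vehicle, 2.7 ± 0.36 in Str let-7f and 2.51 ± 0.346 at the doubled concentration, again with overlapping pools. In vehicle replicate 5 the row of Lars2, the nuclear gene of mitochondrial leucyl-tRNA synthetase, took 5.39% of reads. The other vehicle pools had 0.637% to 1.94%, and the mtDNA share in replicate 5 was 1.73%. The median share of this 1 row was 0.799% in vehicle, 0.931% in Str let-7f and 1.07% at the doubled concentration. Each median lies above the mean share of the 80 nuclear subunits together. Whether these reads come from the Lars2 message was not tested, so they are not read as its expression.

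**Figure D2:**
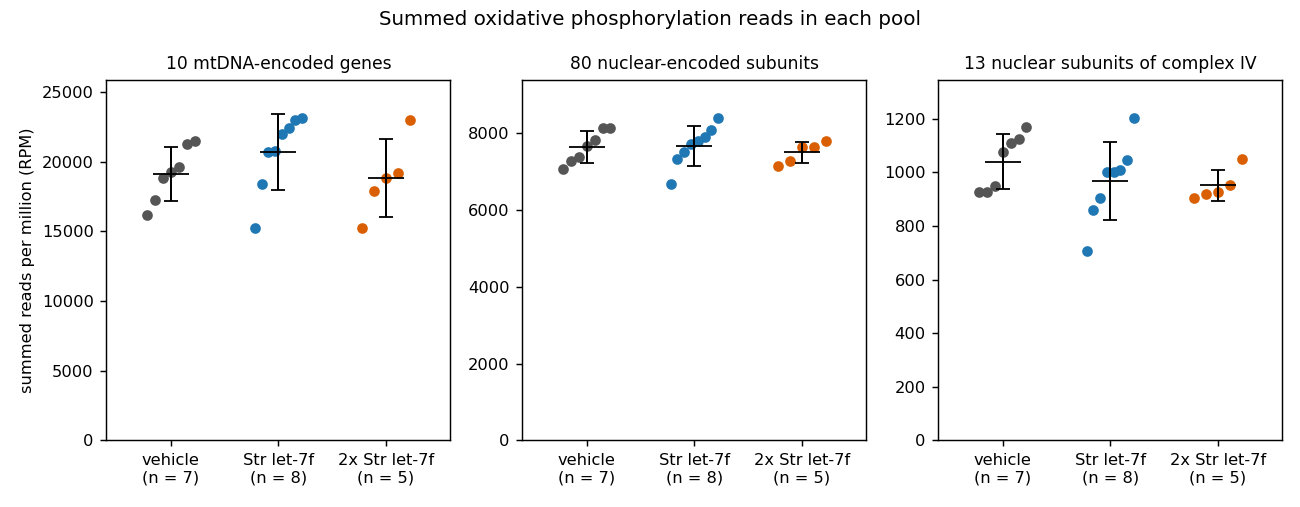
Summed RPM (vertical axis, from 0) of the 10 mtDNA-encoded genes, the 80 nuclear subunits and the 13 nuclear subunits of complex IV in each pool. Points are pools, horizontal bars means and whiskers SD. The 3 groups overlap in each panel, and the lowest and highest mtDNA sums (15238 and 23098) both come from Str let-7f pools.

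Within the mitochondrial genome the messages differed widely in level, although they come from shared precursors. Per kb of transcript, vehicle means were 42577 normalized counts for mt-Co1, the catalytic subunit of complex IV, 29584 for mt-Atp6, the proton channel of ATP synthase, 20793 for mt-Cytb of complex III and 20169 for the proton-pumping subunit mt-Nd5. The complex I genes mt-Nd4, mt-Nd1 and mt-Nd2 followed at 12150, 11760 and 4829. In this order mt-Atp6 and mt-Cytb, mt-Cytb and mt-Nd5, and mt-Nd4 and mt-Nd1 did not differ beyond the SD between pools. The message of mt-Nd6, the member read from the other mtDNA strand, stood at 6491 per kb. Whether the counting used strand is not given in the sources used here, so reads of mt-Nd6 and of transcripts opposite to it cannot be told apart. By comparison, the best expressed nuclear members per kb were Cox6c at 6076 and the ATP synthase subunits Atp5f1b and Atp5f1a at 4216 and 3991. Cox6c thus lay below all of the mtDNA messages named so far except mt-Nd2.

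Of the mtDNA members, mt-Nd1 lay nearest to the threshold. It encodes a core membrane subunit of complex I at the site where electrons reach ubiquinone. It stood at 9847 to 12100 normalized counts in vehicle (median 11554), at 11234 to 19583 in Str let-7f (median 14495) and at 12123, 12401, 15113, 10861 and 11756 at the doubled concentration. In Str let-7f 6 of 8 pools lay above every vehicle pool. The log2 fold change was 0.36 ± 0.10 (limma adjusted p = 0.0531), which did not pass, and 0.14 ± 0.11 at the doubled concentration (adjusted p = 0.667). The call depended on the setting: mt-Nd1 passed in 10 of 34 alternatives, among them edgeR (adjusted p = 0.0472) and DESeq2 (adjusted p = 0.0192). It also passed without Str let-7f replicate 10 (limma adjusted p = 0.0218), 3 (0.0387) or 2 (0.0471) or 2x Str let-7f replicate 3 (0.047). In the libraries over 5 M reads, which left 5 vehicle and 7 Str let-7f pools, it did not (limma adjusted p = 0.178).

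Its neighbour mt-Nd2, another pumping subunit of complex I, had 4084 to 5622 normalized counts in vehicle (median 5167), 4433 to 7247 in Str let-7f (median 6279) and 5284, 5688, 7370, 4927 and 5109 at the doubled concentration. Here too 6 of 8 Str let-7f pools lay above every vehicle pool, and the log2 fold change was 0.30 ± 0.11 (limma adjusted p = 0.171). The other complex I genes lay closer to vehicle, at 0.13 ± 0.10 for mt-Nd4, 0.04 ± 0.08 for mt-Nd5 and -0.01 ± 0.15 for mt-Nd6. In complexes III, IV and V, mt-Cytb stood at 0.15 ± 0.09, mt-Co1 at 0.08 ± 0.09 and mt-Atp6 at -0.04 ± 0.23. At the doubled concentration these 6 genes stood between -0.18 (mt-Nd6) and 0.03 (mt-Cytb). The 10 mtDNA members had medians of 0.06 in Str let-7f and -0.07 at the doubled concentration, with 6 and 4 members above 0. These counts use the mt-Co2 and mt-Co3 rows alone. With the copy rows described below, mt-Co3 turned positive in Str let-7f and mt-Co2 negative at the doubled concentration.

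**Figure D3:**
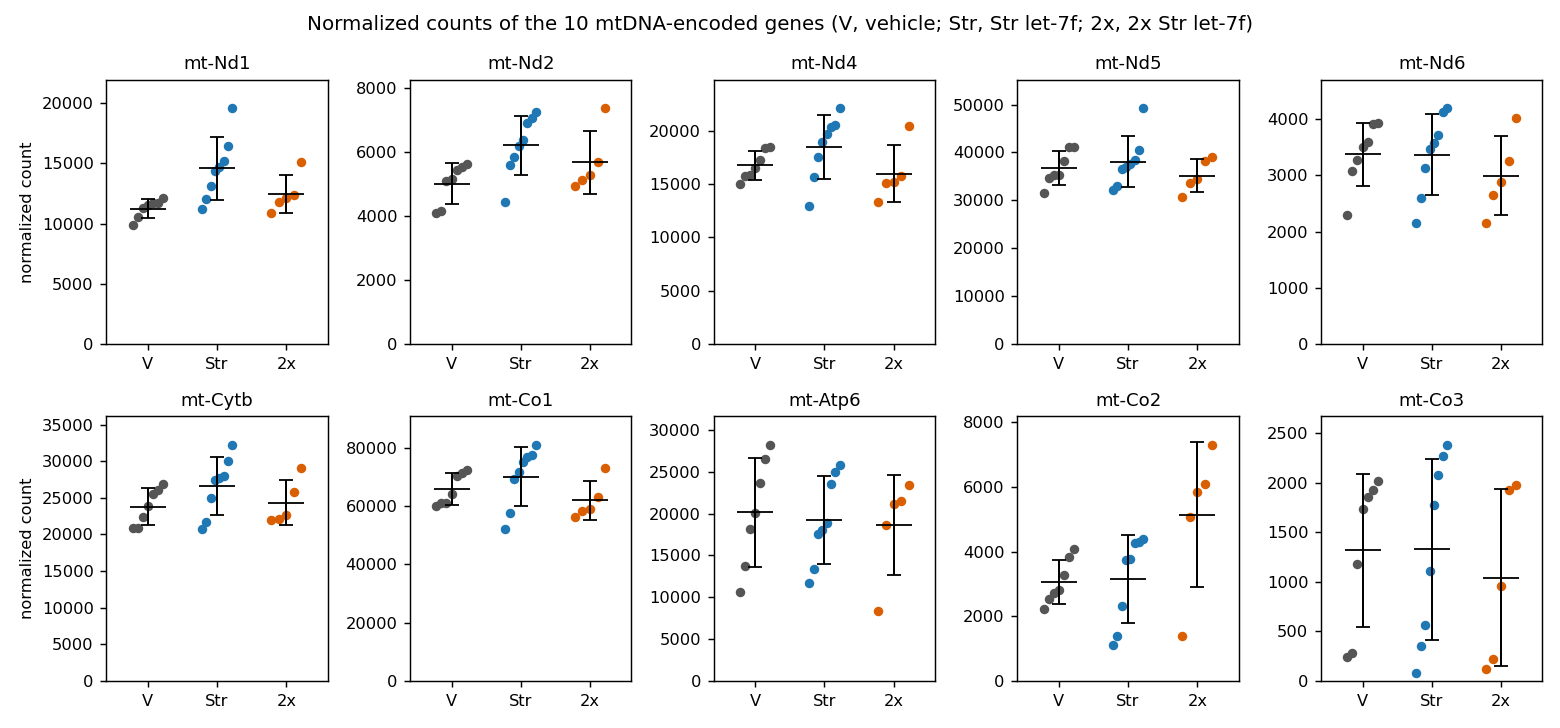
Normalized counts (vertical axes, from 0, scaled per gene) of the 10 mtDNA-encoded genes in each pool, with group means (bars) and SD (whiskers). For mt-Nd1 and mt-Nd2, 6 of 8 Str let-7f pools lie above every vehicle pool. For mt-Co2 and mt-Co3 pools of the same group differ several-fold.

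For mt-Co2 and mt-Co3, the other mtDNA genes of complex IV, the table also holds near-identical rows, and the values depended on whether these were added. Nuclear genomes carry copies of mtDNA, and the row Gm28661 matched mt-Co2 at 100% over 681 of 684 bases while Gm28437 matched mt-Co3 at 100% over 783 of 784 bases. On average Gm28661 held 64.0% of the reads of its pair and Gm28437 held 75.3%. Alone, mt-Co3 ranged from 84 normalized counts (Str let-7f replicate 10) to 2381 (Str let-7f replicate 9), a 28.4-fold span. Summed with its copy, it ranged from 3648 to 6891, a 1.89-fold span close to the 1.55-fold span of mt-Co1 and mt-Cytb.

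For mt-Co2 the rows alone gave 2236 to 4066 in vehicle (median 2796), 1099 to 4388 in Str let-7f (median 3756) and 5834, 7302, 6089, 1389 and 5058 at the doubled concentration. Thus 4 of 5 pools of the doubled concentration lay above every vehicle pool, at a log2 fold change of 0.58 ± 0.37 (limma adjusted p = 0.55). Within vehicle its spread hardly moved, with a coefficient of variation of 22.3% alone and 21.8% with copy rows, while that of mt-Co3 went from 58.4% to 14.3%. With its copy rows the mt-Co2 values were 6244 to 13821 in vehicle, 5678 to 14004 in Str let-7f and 8650, 9196, 11901, 8630 and 9404 at the doubled concentration, so no pool of the doubled concentration lay above every vehicle pool. The fold change was then -0.13 ± 0.19 (limma adjusted p = 0.858), of the opposite sign. For mt-Co3 at the doubled concentration the value changed from -0.67 ± 0.82 alone to -0.07 ± 0.14 with its copy, and in Str let-7f from -0.18 ± 0.72 to 0.14 ± 0.12. Adding copies placed mt-Co2 at 15563 and mt-Co3 at 6253 normalized counts per kb in vehicle, against 4478 and 1682 alone. The copies of mt-Co1 and mt-Nd5 held under 1% of reads of their pairs. This summing was chosen after the data had been seen.

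**Figure D4:**
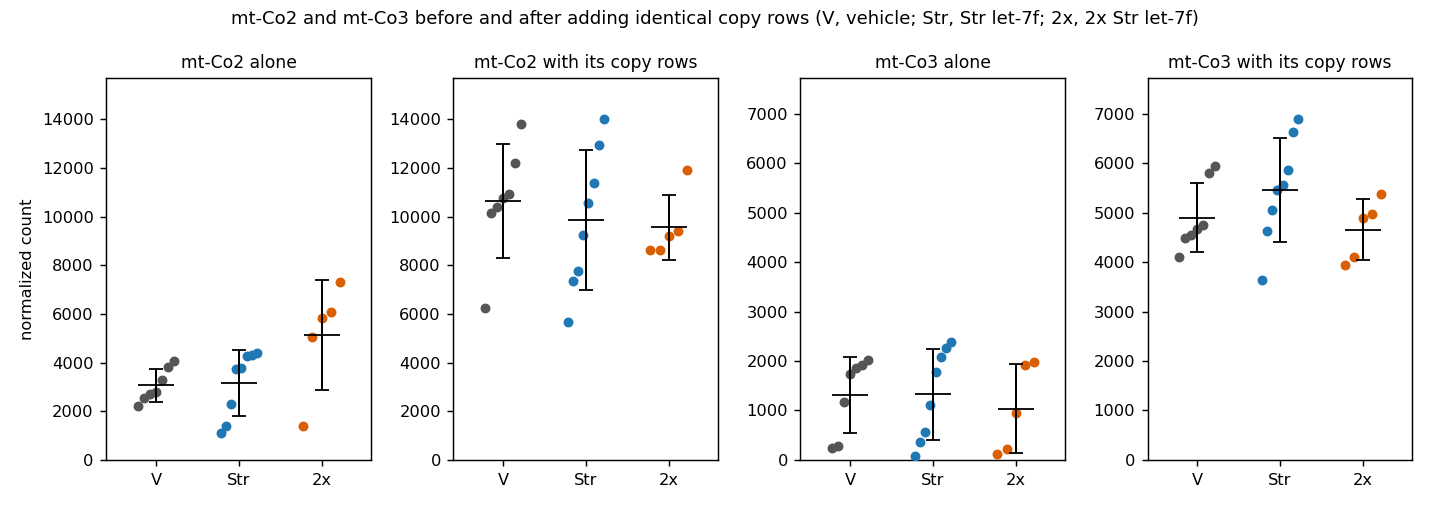
Normalized counts (vertical axes, from 0, equal within a gene) of mt-Co2 and mt-Co3 in each pool, alone and summed with near-identical rows, with means (bars) and SD (whiskers). The sums span 2.47-fold and 1.89-fold over all pools, against 6.65-fold and 28.4-fold for the rows alone.

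Complex I, which takes electrons from NADH, had 37 nuclear subunits here, with medians of 0.01 in Str let-7f and -0.01 at the doubled concentration. In Str let-7f 21 lay above 0 and 16 below, and at an unadjusted p under 0.05 there were 4 higher and 1 lower. The 7 core subunits, which hold the flavin and the iron-sulfur clusters, stood close to vehicle: Ndufv1, the flavin subunit that binds NADH, lay at 0.00 ± 0.15, Ndufs7 at 0.03 ± 0.11 and Ndufs8 at 0.07 ± 0.18. Farthest from vehicle among them was Ndufs1, the large iron-sulfur subunit, at -0.27 ± 0.13 in Str let-7f and -0.19 ± 0.15 at the doubled concentration (limma adjusted p = 0.345 and 0.662).

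The accessory subunit gene Ndufv3 had 209 to 436 normalized counts in vehicle (median 408), 205 to 1282 in Str let-7f (median 588) and 318, 435, 276, 279 and 508 at the doubled concentration. Its log2 fold change was 0.65 ± 0.27 in Str let-7f (limma adjusted p = 0.243) with 6 of 8 pools above every vehicle pool, and Str let-7f replicate 1 at 1282 stood apart from the others, which reached 627. Ndufb8, of the distal membrane arm, stood at 0.45 ± 0.20, and Ndufc1 and Ndufc2, small subunits of the same arm, at 0.54 ± 0.24 and 0.45 ± 0.20 (limma adjusted p = 0.274, 0.29 and 0.287). For Ndufc1 the values were 61.5 to 151 in vehicle (median 107), 112 to 192 in Str let-7f (median 157) and 94, 268, 149, 149.8 and 121 at the doubled concentration. Below vehicle, the smallest p in Str let-7f belonged to Ndufa13, at -0.33 ± 0.15 (limma adjusted p = 0.296), and the smallest at the doubled concentration to Ndufb11. Lower values with wider errors were those of the sparsely counted Ndufa2, at -0.60 ± 0.71 and -0.81 ± 0.80, and of Ndufa3, at -0.48 ± 0.26 and -0.34 ± 0.29. Ndufb11 had 599 to 854 in vehicle (median 701), 481 to 732 in Str let-7f (median 604) and 592, 559, 557, 661 and 511 at the doubled concentration, where 4 of 5 pools lay below every vehicle pool (-0.27 ± 0.13, limma adjusted p = 0.361).

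Complex II, the link to the citric acid cycle and the complex without an mtDNA subunit, was bounded throughout: all 4 genes lay within 1.5-fold at both concentrations. Sdha, the flavoprotein that oxidises succinate, stood at 1780 to 2991 normalized counts in vehicle (median 2185), 1830 to 2602 in Str let-7f (median 2227) and 2542, 1974, 1996, 2525 and 2386 at the doubled concentration. Its log2 fold changes were -0.01 ± 0.11 and 0.04 ± 0.12. Those of Sdhb, the iron-sulfur subunit, were 0.13 ± 0.12 and 0.05 ± 0.14, and those of the membrane anchor Sdhc -0.08 ± 0.16 and -0.01 ± 0.18.

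Complex III passes electrons on to cytochrome c. Its 9 nuclear genes had medians of 0.01 and 0.06, with 0 at an unadjusted limma p under 0.05 in either comparison with vehicle. Cyc1, the cytochrome c1 subunit, stood at 0.09 ± 0.13 and 0.05 ± 0.14, and the Rieske iron-sulfur subunit Uqcrfs1 at 0.05 ± 0.11 and 0.06 ± 0.12. Uqcrb, a small ubiquinone-binding subunit, stood at 0.28 ± 0.23 and 0.39 ± 0.26 (limma adjusted p = 0.615 and 0.576). Uqcrc2, a large core protein of the matrix side, stood at -0.03 ± 0.14 and -0.15 ± 0.16.

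Complex IV, cytochrome c oxidase, was the complex whose nuclear genes lay most often below vehicle: 9 of 12 tested were below 0 in Str let-7f and 10 of 12 at the doubled concentration, with medians of -0.09 and -0.14. All genes tested split more evenly, with 48.2% and 49.3% above 0, and the comparisons share their vehicle pools. The 13 nuclear subunits summed to 928 to 1168 RPM in vehicle, 706 to 1202 in Str let-7f and 906 to 1049 at the doubled concentration. Below every vehicle pool lay 3 of 8 and 3 of 5 mimic pools, and 1 Str let-7f pool lay above. At the doubled concentration these 3 stood at 921, 926 and 906 RPM, close under the lowest vehicle pool. The Str let-7f pool at 706 was replicate 9, the shallowest library at 1.54 M reads. This sum includes Cox6c, whose part in it was not counted. Cox6c, the nuclear member with the highest level per kb, had 3202 to 4341 normalized counts in vehicle (median 3798), 2160 to 3818 in Str let-7f (median 3180) and 2894, 3374, 2633, 3460 and 3909 at the doubled concentration. Its fold changes were -0.27 ± 0.11 and -0.18 ± 0.13 (limma adjusted p = 0.241 and 0.599). Ndufa4, first described in complex I and since assigned to complex IV, stood at -0.04 ± 0.28 and -0.44 ± 0.32. The second value rested on single libraries: it was -0.15 without 2x Str let-7f replicate 1 and -0.68 without replicate 4.

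Tissue-restricted isoforms of complex IV were near the floor in every group. Cox6b2, the testis isoform of the subunit that Cox6b1 encodes elsewhere, had 2.6 to 32 normalized counts in vehicle (median 13.4), 0 to 14.5 in Str let-7f (median 4.95) and 2, 5.15, 31.5, 0 and 16.3 at the doubled concentration (-1.27 ± 0.76 and -0.91 ± 0.86, limma adjusted p = 0.466 and 0.739). Cox6b1 had vehicle values of 98.6 to 350 (-0.13 ± 0.25 in Str let-7f). Cox7a1, the heart and muscle isoform, reached at most 7.8 in vehicle, 22.3 in Str let-7f and 4.25 at the doubled concentration. It was the 1 member that did not enter the test, which asked for at least 10 normalized counts in at least 5 libraries, and Cox6b2, with 8 such libraries, was the member just inside. The widespread partner Cox7a2 was among the steadiest members in vehicle, at 225 to 256. In Str let-7f it spread from 195 to 374, with 6 pools above and 2 below every vehicle pool (0.15 ± 0.15, limma adjusted p = 0.713). The supercomplex factor Cox7a2l, which joins complexes III and IV, stood at -0.00 ± 0.16 and -0.13 ± 0.18.

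Complex V, the ATP synthase, had 17 nuclear subunits with medians of -0.05 and -0.04. Atp5f1a and Atp5f1b, which form the catalytic head, stood at 0.10 ± 0.12 and 0.05 ± 0.11 in Str let-7f. At the doubled concentration they stood at -0.04 ± 0.13 and 0.00 ± 0.12. The rotor shaft gene Atp5f1c lay at -0.14 ± 0.12 and -0.14 ± 0.13. The 3 genes Atp5mc1, Atp5mc2 and Atp5mc3, which encode the same mature ring subunit, lay at 0.03 ± 0.18, -0.07 ± 0.18 and -0.13 ± 0.13 in Str let-7f. Atp5f1e, the smallest shaft subunit, stood at 0.15 ± 0.23 and 0.51 ± 0.26 (limma adjusted p = 0.837 and 0.433), and Atp5po, which couples head and base, at 0.04 ± 0.12 and 0.15 ± 0.14. Atp5if1, the inhibitor that stops the enzyme from running backwards and burning ATP, stood lower in Str let-7f than in the other groups, a difference that did not pass the test. It had 147 to 308 normalized counts in vehicle (median 244), 63.3 to 212 in Str let-7f (median 156) and 256, 252, 189, 238 and 207 at the doubled concentration. In Str let-7f 3 of 8 pools lay below every vehicle pool (-0.61 ± 0.24, limma adjusted p = 0.214), while the 2x Str let-7f pools all lay inside the vehicle range (0.02 ± 0.27). The difference between both mimic groups was 0.63 ± 0.26 (limma adjusted p = 1).

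The 8 complex I assembly factors were low in count and had the widest errors (median SE 0.46), and they lay on both sides of vehicle. Their sum was 47.6 to 79.1 RPM in vehicle, 67.2 to 87.5 in Str let-7f, where 3 of 8 pools lay above every vehicle pool, and 54.9 to 69.8 at the doubled concentration. Ndufaf4, which acts early in complex I assembly, had 59.5 to 156 normalized counts in vehicle (median 102), 98.5 to 285 in Str let-7f (median 144) and 134, 77.2, 99.5, 139 and 128 at the doubled concentration, a log2 fold change of 0.74 ± 0.27 in Str let-7f (limma adjusted p = 0.168). Ndufaf5, a hydroxylase that acts on Ndufs7, had 33.9 to 78.7 in vehicle (median 57.5), 3.92 to 76 in Str let-7f (median 34.9) and 56, 82.4, 44, 103 and 35.4 at the doubled concentration. Str let-7f replicates 1, 2, 3 and 5 lay below every vehicle pool. It stood at -1.11 ± 0.51 and 0.09 ± 0.58 (limma adjusted p = 0.302 and 0.97). Ndufaf6, needed for the mtDNA-encoded part of complex I, had 24.7 to 129 in vehicle (median 78), 12.6 to 62.8 in Str let-7f (median 28.2) and 10, 38.6, 48.5, 10.3 and 23.0 at the doubled concentration, below the vehicle median in every mimic pool. Its fold changes were -0.96 ± 0.46 and -1.47 ± 0.52 (limma adjusted p = 0.334 and 0.187). Ndufaf1, a member of the intermediate assembly complex, stood at -0.16 ± 0.26 and -0.26 ± 0.29.

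**Figure D5:**
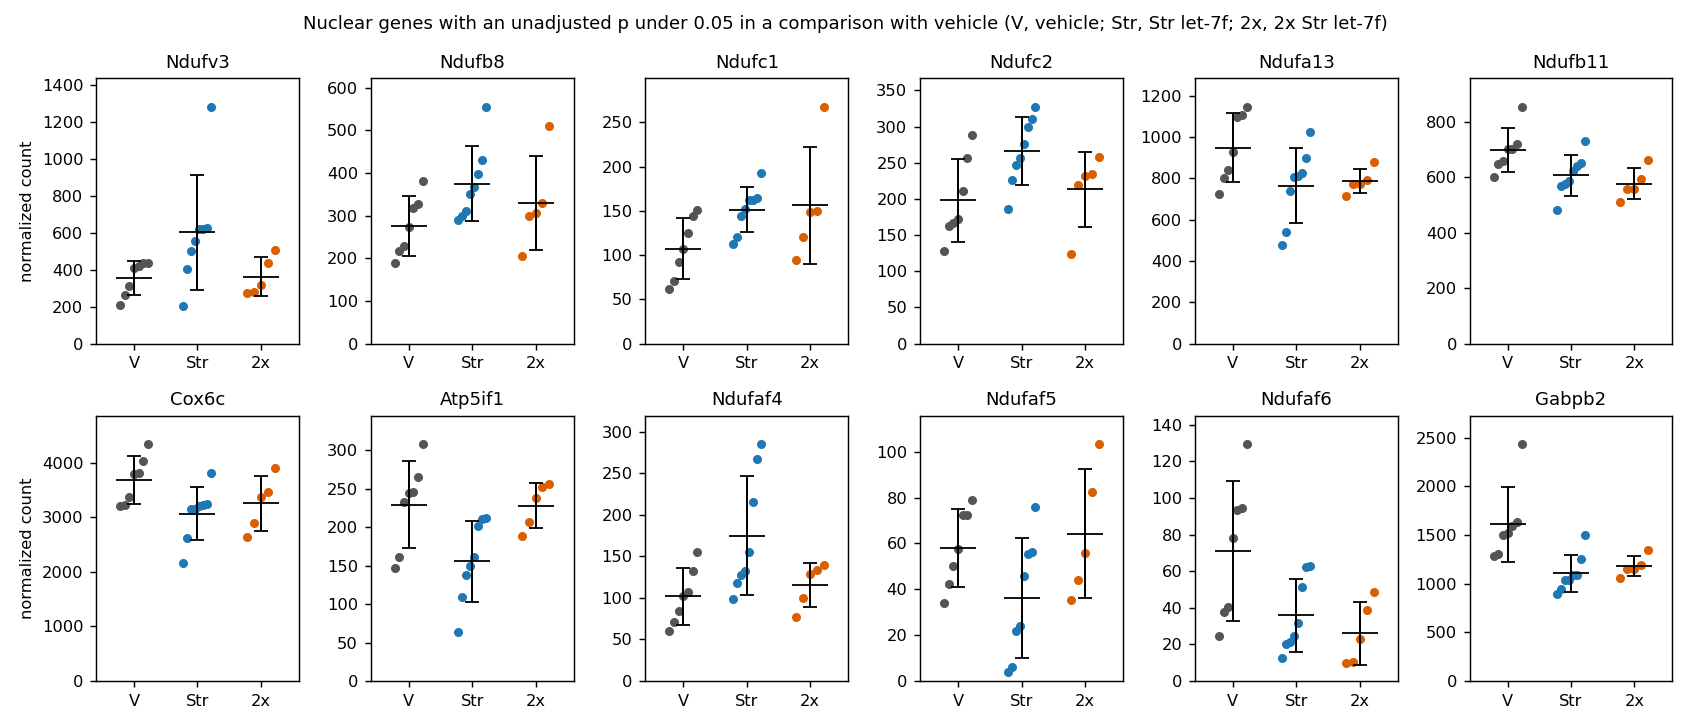
Normalized counts (vertical axes, from 0, scaled per gene) in each pool of 11 nuclear members with an unadjusted limma p under 0.05 in a comparison with vehicle, and of Gabpb2, with means (bars) and SD (whiskers). The pools of the 3 groups overlap for the 11 members. For Gabpb2, 7 of 8 Str let-7f pools lie below every vehicle pool.

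Nuclear members are known to share promoter elements for NRF1, GABP (also called NRF2) and YY1, so the promoters were searched on both strands for fixed words: the NRF1 word in capitals in the Ndufaf4 window shown here, CCGGAAGT for GABP and AAGATGGC for YY1. Each of the 23 members with a match held only 1 kind of word. RefSeq promoters (GRCm38.p6, 250 bases before to 50 after the start) were found for 74 of 90 nuclear members. The NRF1 motif was in 7 (9.46%) against 2.15% of 11345 promoters, the YY1 motif in 11 (14.9%) against 4.81%, and the GABP motif in 5 (6.76%) against 8.25%. Windows with the motif in capitals are shown for genes whose values are given above or that stayed at vehicle level, each 5′ to 3′ on the strand of the gene.
Ndufaf4 (NRF1, chr4:24897960-24897989, plus strand): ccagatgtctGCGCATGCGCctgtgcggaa
Ndufaf5 (NRF1, chr2:140170652-140170681, plus strand): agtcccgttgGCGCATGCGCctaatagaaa
Uqcrc1 (NRF1, chr9:108936668-108936697, plus strand): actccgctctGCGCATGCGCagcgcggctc
Ndufc1 (YY1, chr3:51408915-51408944, minus strand): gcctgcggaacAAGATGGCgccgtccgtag
Ndufs7 (YY1, chr10:80249462-80249491, plus strand): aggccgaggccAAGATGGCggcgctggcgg
Cox8a (GABP, chr19:7217604-7217633, minus strand, motif on the opposite strand): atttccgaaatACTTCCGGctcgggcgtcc
Of the 7 members with the NRF1 motif, 2 stood above 0 and 5 below in Str let-7f, and 5 above and 2 below at the doubled concentration. Of the 11 with the YY1 motif, 6 stood above 0 and 5 below in each comparison with vehicle. Of the 5 with the GABP motif, 2 stood above and 3 below in Str let-7f, and 1 above and 4 below at the doubled concentration. The NRF1-motif genes Ndufaf4, Ndufaf5 and Uqcrc1 stood at 0.74, -1.11 and -0.03 in Str let-7f, and the YY1-motif genes Ndufc1 and Ndufs7 at 0.54 and 0.03. Cox8a, a small complex IV subunit with 2 GABP matches, stood at 0.11. In Str let-7f the medians were -0.07 for the 7 members with and 0.00 for the 66 tested members without the NRF1 motif, 0.00 with and -0.00 without the YY1 motif, and -0.05 with and -0.00 without the GABP motif. A match is a description of these windows and not a shown binding site. Most YY1 words of the members began after the gene start, those of Ndufc1 and Ndufs7 by 22 and 24 bases. The YY1 word also holds ATG, and whether these matches fall on start codons was not tested.

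Genes that act on the pathway without being members gave 1 call. Of 11 nuclear regulators of mitochondrial biogenesis tested, 1 fell and 0 rose in Str let-7f, and 0 were called at the doubled concentration, where 1 had an unadjusted limma p under 0.05. Over all genes 2.63% were called in Str let-7f (0.796% lower), and nothing about the list is read from a single call. The gene was Gabpb2, which encodes a partner subunit of the GABP transcription factor. It had 1280 to 2432 normalized counts in vehicle (median 1523), 888 to 1500 in Str let-7f (median 1064) and 1059 to 1349 at the doubled concentration (median 1153), with 7 of 8 and 4 of 5 mimic pools below every vehicle pool. Its log2 fold changes were -0.53 ± 0.13 (limma adjusted p = 0.0264) and -0.42 ± 0.15 (adjusted p = 0.175). It passed in 24 of 34 alternatives. The call was lost without vehicle replicate 1 (limma adjusted p = 0.0524), 3 (0.0531) or 6 (0.0563), without Str let-7f replicate 5 (0.058), 6 (0.0527) or 10 (0.0564), and in the libraries over 5 M reads (0.153). It was also lost with the replicate number as a block (limma adjusted p = 0.0969), with only the groups compared (0.0536) and with array weights (0.0532). Gabpa, the DNA-binding subunit, stood at 0.31 ± 0.12 and 0.09 ± 0.13, Yy1 at -0.40 ± 0.15 and -0.28 ± 0.17, and Nrf1 at -0.13 ± 0.16 and -0.29 ± 0.18 (limma adjusted p = 0.165 or higher).

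The machinery that copies, reads and trims mtDNA gave 0 calls of 17 genes of copying and transcription and 0 of 18 of RNA processing in either comparison with vehicle by limma, with 1 and 3 genes at an unadjusted p under 0.05 in Str let-7f and 0 and 1 at the doubled concentration. Tfam, which packages mtDNA and starts its transcription, stood at -0.50 ± 0.19 and -0.37 ± 0.21 (limma adjusted p = 0.194 and 0.504), with 6 of 8 Str let-7f pools below every vehicle pool. Fastkd1, a mitochondrial RNA-binding protein, stood at -0.61 ± 0.19 and -0.44 ± 0.22 (limma adjusted p = 0.1 and 0.4), and the RNA helicase gene Supv3l1 at -0.59 ± 0.21 and -0.22 ± 0.24. Prorp, the catalytic subunit of mitochondrial RNase P, stood at 0.06 ± 0.34 in Str let-7f and 1.04 ± 0.38 at the doubled concentration (limma adjusted p = 0.958 and 0.206). Twnk, the mtDNA helicase, stood at -0.20 ± 0.19 and -0.29 ± 0.22.

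Assembly factors outside the name rule gave 0 calls by limma for complexes I to V (11, 4, 9, 23 and 4 genes tested) at either concentration, and at an unadjusted p under 0.05 there were 1, 0, 1, 0 and 0 in Str let-7f and 1, 0, 1, 1 and 0 at the doubled concentration. Closest was Tmem70, which promotes assembly of the ATP synthase ring and of complex I. It had 273 to 431 normalized counts in vehicle (median 394), 421 to 689 in Str let-7f (median 485) and 412 to 687 at the doubled concentration (median 653), with 7 of 8 and 4 of 5 pools above every vehicle pool. Its fold changes were 0.50 ± 0.15 and 0.65 ± 0.17 (limma adjusted p = 0.0937 and 0.0554). Uqcc1, of complex III assembly, stood at -0.57 ± 0.19 and -0.26 ± 0.21 (adjusted p = 0.117 and 0.678), and Cmc1, of complex IV assembly, at 0.50 ± 0.32 and 0.83 ± 0.36. For Uqcc4 all 5 pools of 2x Str let-7f lay below every vehicle pool, at -0.39 ± 0.18 (limma adjusted p = 0.361). The share of all genes separated in this way was not counted, so nothing is read from it. Of 6 genes for cytochrome c and the carriers that exchange ADP, ATP and phosphate, and of 17 genes of mitochondrial fusion, fission and cristae shape, 0 were called by limma, and 0 had an unadjusted p under 0.05 in either comparison with vehicle. Cytochrome c itself, Cycs, stood at 0.02 ± 0.11 and 0.06 ± 0.13, and Opa1, which shapes cristae, at -0.19 ± 0.11 and 0.01 ± 0.12. The Lars2 row, whose reads may not be of its message, stood at -0.45 ± 0.38 and -0.07 ± 0.43.

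Between both mimic groups the members also lay close together. The median log2 difference of 2x Str let-7f from Str let-7f was -0.04, against 0.00 for all genes tested, and the 95% interval lay within 1.5-fold for 58 of 99 members (58.6%) and 4029 of 15068 genes (26.7%). Of the 10 mtDNA members 9 stood below 0, with a median of -0.15. The exception, mt-Co2, stood at 0.67 ± 0.36 alone and at -0.00 ± 0.19 with its copy rows. Ndufaf5, at 1.20 ± 0.57, was the other member besides Atp5if1 with an unadjusted limma p under 0.05 (adjusted p = 1).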

How the data were processed

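Libraries were stranded, low-input and free of most ribosomal RNA, per the labels' protocols. GRCm39, MultiQC 1.28, FastQC 0.12.1, DESeq2 1.48.2, kallisto 0.50.1 and Trimmomatic 0.39 appear in the submitters' processing notes. Their roles, the annotation and the strand setting are not given in the sources used here. The authors deposited a signal per gene, normalized counts that are never negative. In all 20 libraries 100% of the values were whole multiples of 1 read (tolerance 0.01), so reads and depths were recovered. RPM is reads per 1000000 recovered reads. The row without a gene name (0.0286% to 0.0618% of reads) was left out. Rows with near-identical copies are uncertain, since reads that fit both can be placed in either. None of the 59 same-group pairs agreed within the noise of sampling (the chi-square was 17.8 or more per degree of freedom). Depth limits precision most for low members, and 3 reads equal 0.051 to 1.94 RPM in single libraries, for counting error only.

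limma 3.58.1 (R 4.3.3, trended prior) was fitted to log2(normalized count + 1) of the 15068 genes that reached 10 normalized counts in 5 or more libraries, with 1 mean per group over all 20 libraries. A gene was called when its two-sided p, adjusted by Benjamini-Hochberg over all genes tested, was under 0.05. Values with ± after a fold change are SE, elsewhere SD. Sums and medians are descriptions without a test. edgeR 4.0.16 and DESeq2 1.42.0 on recovered reads, other pseudocounts, filters and scalings, array weights, a replicate block, depth and leaving out libraries were alternatives. The fitting step was also run on simulated counts with the same spread setting for all genes, and nothing above rests on that run.

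The members and all gene lists were chosen with earlier results of these data known. Named genes were all mtDNA members, every called member, the 2 nuclear members of each complex and of the assembly factors with the smallest p in each comparison with vehicle, tissue-restricted isoforms with their partners, the members next to the filter, Lars2, and from each list the 2 with the smallest p and every called gene. Other genes were named after their values were seen. Transcript lengths and 3′ regions came from GENCODE M21 (GRCm38), another build than the submitters'. The current symbol found 80 members and another symbol 17, while 3 were not matched. Lengths were used for 88 members whose main transcripts differ by at most 1.5-fold.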

Additional observations from a re-analysis of the deposited data

Results flagged for a closer look

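A Dixon test at the 95% level marks a pool whose value lies far from the rest of its group. Over the members, group sums and Lars2 it was applied to 309 group values and marked 20 (6.47%), where chance marks about 1 in 20. The marks fell on 11 libraries, with 4 on 2x Str let-7f replicate 4 and 3 on Str let-7f replicate 9, the shallowest libraries of their groups. Among the genes named by rule, 3 values were marked. Ndufv3 had 1282 normalized counts in Str let-7f replicate 1, against 205 to 627 in the other 7 pools. Cox7a2 had 260 in 2x Str let-7f replicate 2, against 222 to 230 in the other 4 pools, a difference that is large only beside the small spread of those 4. Lars2 had 53857 RPM in vehicle replicate 5, against 6372 to 19443 RPM in the other vehicle pools. Marks also fell on genes discussed above that were not named by rule. Atp5f1a had 14130 normalized counts in vehicle replicate 8, against 8617 to 9672 in the other vehicle pools, and Atp5mc3 had 838 there, against 1242 to 1515. Ndufs7 had 1625 in Str let-7f replicate 5, against 988 to 1269. Ndufc2 had 124 in 2x Str let-7f replicate 4, against 220 to 257.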

How the results depend on the processing

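Under the alternatives, a count was taken as moved when it differed by over 1.5-fold or rose from 0. Medians and sums were judged by the spread between pools, which was 0.12 for the median of the members. That spread exceeds every such median, so this label says little about medians, whose ranges are given below. By these rules 258 values of the main counts, medians and sums stayed as reported and 10 moved. All 10 were counts of called members in Str let-7f, which was 0 as reported and 1 (mt-Nd1) with a mean of at least 50 normalized counts, with RPM, with mtDNA-encoded reads left out of the total, with edgeR, with DESeq2 and with the replicate number as a block, and 0 to 1 on leaving out single libraries. In the other comparisons 0 members were called under every alternative run. Median fold changes of the members stayed between -0.03 and 0.04 in Str let-7f, between -0.06 and -0.01 at the doubled concentration and between -0.09 and 0.01 between mimic groups. Same-numbered pools of 2 groups were not alike (14 pairs, r from -0.00657 to 0.0922), so the numbers were not taken as pairs. The block gave 1 called member in Str let-7f and 0 in the other comparisons, and medians of 0.04, -0.06 and -0.09. Over all genes, 397 were called in Str let-7f and 285 at the doubled concentration, but 767 and 620 with DESeq2 and 617 and 647 with array weights. The libraries over 5 M reads, with 5 pools left in vehicle, 7 in Str let-7f and 3 at the doubled concentration, gave 199 and 65. Depth and fewer pools cannot be told apart in that setting. Leaving out single libraries gave 282 to 459 and 144 to 330 called genes. The lowest count at the doubled concentration, 144, came without 2x Str let-7f replicate 5, and its counts were 188, 151 and 157 without replicates 2, 3 and 4 and 181 and 176 without vehicle replicates 2 and 3. Between mimic groups 0 genes were called, 10 with DESeq2 and 1 with edgeR, and 0 to 1 on leaving out libraries. For nuclear subunits, adding mtDNA-like copy rows could give no value, as these rows match mtDNA genes. Depth limits the assembly factors and isoforms most, whose intervals often exceed 2-fold.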
